A study of Homo sapiens with 6 samples.

Results

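The CP and TM4SF1 block is a stretch of neighbouring genes at 3q25 on chromosome 3, from 148991408 to 149503394 (GRCh38, 512 kb), whose transcripts were counted in the human ovarian carcinoma cell line A2780 with and without disruption of CDK12. Its 9 genes, of 60483 listed in the count table, are GYG1, HPS3, CP, CPHL1P, TM4SF18-AS1, TM4SF18, TM4SF1, TM4SF1-AS1 and TM4SF4. They were chosen by name and position, with the difference between knockout and wild-type cells already known, so that difference is described here without a test. Total RNA was sequenced from 3 libraries of wild-type A2780 cells (WT) and 3 libraries of A2780 CDK12 knockout cells (KO). KO cells descend from 1 clone obtained after transfection of a Cas9 plasmid aimed at exon 1 of CDK12, which encodes a kinase of the RNA polymerase II C-terminal domain. Both groups were grown in the same serum-supplemented RPMI medium, without further treatment. Effects of CDK12 loss and differences particular to the clone cannot be told apart.

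Ceruloplasmin, encoded by CP, is a copper-carrying ferroxidase of plasma that oxidises iron leaving cells through ferroportin, so that transferrin can bind it. TM4SF1, TM4SF18 and TM4SF4 encode proteins of the L6 family, small membrane proteins that cross the membrane 4 times and resemble tetraspanins. TM4SF1, the L6 tumour antigen, is known from many carcinomas and from endothelial cells. Its neighbours GYG1 and HPS3 encode unrelated products, glycogenin, which primes glycogen synthesis, and a subunit of the BLOC-2 complex, which serves the biogenesis of lysosome-related organelles.

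Promoters of the block fell into GC-rich and GC-poor kinds. RefSeq (GRCh38.p14) gave a promoter for 6 of the 9 genes, each of 300 bases, 250 before the transcription start and 50 after it. It gave none for CP, CPHL1P and TM4SF18-AS1, so the contrast does not cover them. The following stretches before the start of TM4SF1, TM4SF18, HPS3 and GYG1 show the contrast in CG dinucleotides. RNA of TM4SF1 and TM4SF18 was near 0 in KO, and that of HPS3 and GYG1 was still counted there. The genes were picked with those levels known, and whether promoter composition bears on them was not tested. Capitals mark matches to GGAATG, the core read by TEAD factors, or to CCAAT, on either strand. Bases that GENCODE 44 annotates as UTR of any transcript were left out of the stretches shown. Promoter starts are those of RefSeq and differ from the GENCODE gene positions given below for TM4SF1, TM4SF18 and GYG1. The stretches of TM4SF1 and GYG1 end 43 and 132 bases before the RefSeq start. That of TM4SF18 lies within the GENCODE span of the gene, which reaches 149334414. The TM4SF1 stretch spans chr3:149377693-149377899 on the minus strand, the TM4SF18 stretch chr3:149333637-149333886 on the minus strand, the HPS3 stretch chr3:149129388-149129637 on the plus strand and the GYG1 stretch chr3:148991290-148991407 on the plus strand.
TM4SF1: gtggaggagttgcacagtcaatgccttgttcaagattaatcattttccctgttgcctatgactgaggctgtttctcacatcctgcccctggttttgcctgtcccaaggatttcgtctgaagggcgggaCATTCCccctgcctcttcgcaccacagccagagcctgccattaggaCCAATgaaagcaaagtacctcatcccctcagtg
TM4SF18: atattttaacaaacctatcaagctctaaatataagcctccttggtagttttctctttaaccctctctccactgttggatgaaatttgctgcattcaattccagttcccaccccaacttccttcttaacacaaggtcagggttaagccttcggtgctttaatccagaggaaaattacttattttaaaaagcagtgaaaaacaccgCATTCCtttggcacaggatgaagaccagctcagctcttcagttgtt
HPS3: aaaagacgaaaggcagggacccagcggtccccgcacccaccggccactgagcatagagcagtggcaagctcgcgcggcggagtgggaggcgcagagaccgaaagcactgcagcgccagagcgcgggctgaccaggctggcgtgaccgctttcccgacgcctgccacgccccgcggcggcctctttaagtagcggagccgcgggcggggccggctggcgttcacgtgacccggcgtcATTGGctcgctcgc
GYG1: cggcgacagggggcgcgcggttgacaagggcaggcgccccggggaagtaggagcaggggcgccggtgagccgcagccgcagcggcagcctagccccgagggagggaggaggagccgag

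Across the whole 300 bases, the TM4SF18 promoter held 2 CG dinucleotides and the promoters of TM4SF1, TM4SF1-AS1 and TM4SF4 held 4 each, against a median of 14 over 35116 promoters. The GYG1 promoter held 43 and the HPS3 promoter 39. GC content ran from 39.3% for TM4SF18 to 51.3% for TM4SF1-AS1 in these 4 promoters, below the median of 58.7%, whereas it was 70.3% for HPS3 and 77.3% for GYG1. The promoter of HLTF, a gene of the same stretch that is no member and whose level is given below, held 27 CG dinucleotides. Beyond the block, WWTR1 and COMMD2 were also still counted in KO. Promoters of WWTR1 held 18 and 1 CG dinucleotides, the latter fewer than that of TM4SF18, and that of COMMD2 held 28. GGAATG on either strand was present in the promoters of TM4SF18, TM4SF1 and TM4SF1-AS1, the last of which overlaps that of TM4SF1, and in 14.0% of all promoters. In TM4SF18 its leftmost base lay 46 bases before the start, and in TM4SF1 the match shown lay 122 bases before it. CCAAT, found in 34.6% of promoters, was present in the promoters of TM4SF1, TM4SF1-AS1, HPS3 and TM4SF4, at 76 bases before the start of TM4SF1, 14 before that of HPS3 and 126 before that of TM4SF4. TATAAA, found in 11.5% of promoters, was present 31 bases before the start of TM4SF4 among the promoters of the block. TGANTCA, the element of AP-1 factors, was in 7.71% of promoters and in none of these 6. A match of letters is a description of the sequence and not evidence of binding.

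Totals ranged from 11098400 to 30899045 counts per library, so that 3 counts corresponded to between 0.10 and 0.27 CPM (counts scaled to library size and TMM factors). Nothing in the labels says that libraries came from separate cultures, so p-values measure the spread between libraries, which may be technical. CDK12 itself was counted at 103 to 125 CPM in WT and 92.9 to 102 CPM in KO (log2 fold change −0.23, SE 0.0582, quasi-likelihood test of edgeR, Benjamini-Hochberg adjusted p = 8.2e-04). The RNA level of the targeted gene therefore separated the groups only slightly, and counts over the whole gene do not show an edit in its first exon. The study itself reported altered exon sequence on each CDK12 allele of the clone and no CDK12 protein by western blot. Of 13 ovarian carcinoma and epithelial markers 5 were tested and 0 called, with a median log2 fold change of 0.66 and a summed level of 70.6 to 76.2 CPM in WT and 118 to 122 CPM in KO. By adjusted p alone KRT18, which made up most of that sum (59.9 CPM in WT, 103 in KO), KRT8, CLDN4 and MSLN were higher in KO and EPCAM was lower (3.19 CPM in WT, 2.17 in KO). PAX8, a defining marker of ovarian carcinoma, had 14 counts over the WT libraries and 4 over KO. MUC16 had 1 count in WT and 0 in KO.

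In WT, TM4SF1 was the most abundant transcript of the block, both in counts and per length, and in KO it was almost uncounted. It lies on the minus strand at 149369022 to 149377692 and ranked 102 among 16198 tested genes in WT. Counts were 21905, 21405 and 8347 in WT replicates 1 to 3 and 10, 8 and 3 in KO replicates 1 to 3. On the CPM scale this was 799, 714 and 751 in WT and 0.406, 0.297 and 0.168 in KO. The groups were far from overlapping. From counts summed over each group, the KO level was 0.0402% of WT (exact 95% interval 0.0249% to 0.0614%, for counting error only). Fitted as a log2 fold change, the difference was −11.26 (SE 0.108). This SE was derived from the test statistic and is narrower than the counting interval, which is the better guide to precision with KO near 0. TM4SF1 accounted for 68.6% to 70.7% of all counts of the block in WT libraries and for 0.152% to 0.366% in KO libraries.

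TM4SF18, the closest L6 relative in the block, lies on the same strand at 149318498 to 149334414. It had 328, 443 and 142 counts in WT and 0, 0 and 1 in KO, that is 13.2 ± 1.45 CPM against 0.0187 ± 0.0324 CPM (SD, n = 3). A single count in KO replicate 3 was all that was left, and the KO level was 0.108% of WT (0.00274% to 0.604%). TM4SF4, the L6 protein of intestine and liver, was near the limit of counting already in WT. Its counts were 7, 6 and 1 in WT and 0 in each KO library. Its level in KO was 4.72-fold lower against a floor of 3 counts over the group, and at least 3.36-fold lower by the exact 95% interval. TM4SF4 did not pass the filter on low counts and has no fitted fold change. It lies at 149474697 to 149503394, beyond the approximate end of the block given by its rule.

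A pair of antisense transcripts accompanied the L6 genes. TM4SF18-AS1, a lncRNA at 149284782 to 149333653 on the plus strand, had 2417, 2322 and 812 counts in WT and 1, 0 and 1 in KO. Its level was 79.5 ± 7.75 CPM in WT against 0.0323 ± 0.0290 CPM in KO (mean ± SD, n = 3), and KO held 0.0356% of WT (0.00431% to 0.129%). In WT it was counted 5.24 to 7.37 times as often as TM4SF18, the gene it runs against. TM4SF1-AS1, a lncRNA at 149377778 to 149386583 on the plus strand, starts 86 bases from the GENCODE start of TM4SF1 and runs in the opposite direction. It had 76, 59 and 31 counts in WT and 0 in all 3 KO libraries. Its level in KO was 56.0-fold lower against a floor of 3 counts over the group, and at least 45.0-fold lower by the exact 95% interval. The fitted log2 fold changes were −9.38 (SE 0.316) for TM4SF18, −11.19 (SE 0.188) for TM4SF18-AS1 and −8.81 (SE 0.626) for TM4SF1-AS1. With KO at or near 0 these fitted values depend on the prior count and are no bounds, and their SE understate the counting error.

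CP followed the same course at a lower level. The gene lies on the minus strand at 149162410 to 149221829 and had 552, 663 and 240 counts in WT against 0, 1 and 1 in KO. Levels were 20.1, 22.1 and 21.6 CPM in WT and 0, 0.0371 and 0.0561 CPM in KO. KO held 0.136% of WT (0.0164% to 0.491%). The fitted log2 fold change was −9.28 (SE 0.239, again narrower than the counting interval). Its neighbour CPHL1P, a unitary pseudogene related to ceruloplasmin and hephaestin at 149229356 to 149291800 on the minus strand, was lower in KO but still counted. It had 46, 41 and 31 counts in WT and 6, 4 and 1 in KO, that is 1.94 ± 0.748 CPM against 0.149 ± 0.0939 CPM (SD, n = 3). The KO level was 9.21% of WT (4.48% to 17.1%), a larger remaining share than for CP, and the log2 fold change was −3.42 (SE 0.382). WT libraries spread widely for this gene, from 1.37 to 2.79 CPM, yet all lay above the highest KO library at 0.244 CPM.

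GYG1 and HPS3, at the start of the block, were lower in KO by a much smaller amount. GYG1 (148991408 to 149031775, plus strand) had 91.5, 91.4 and 88.4 CPM in WT and 46.3, 48.5 and 45.5 CPM in KO. KO held 51.6% of the WT level (49.4% to 53.8%), and the log2 fold change was −0.95 (SE 0.0526). HPS3 (149129638 to 149173732, plus strand) had 114, 117 and 111 CPM in WT and 64.2, 68.0 and 64.9 CPM in KO. It kept 57.4% (55.3% to 59.5%), with a log2 fold change of −0.80 (SE 0.0504). For both genes the groups did not overlap and the SD within a group was at most 2.69 CPM.

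**Figure D1:**
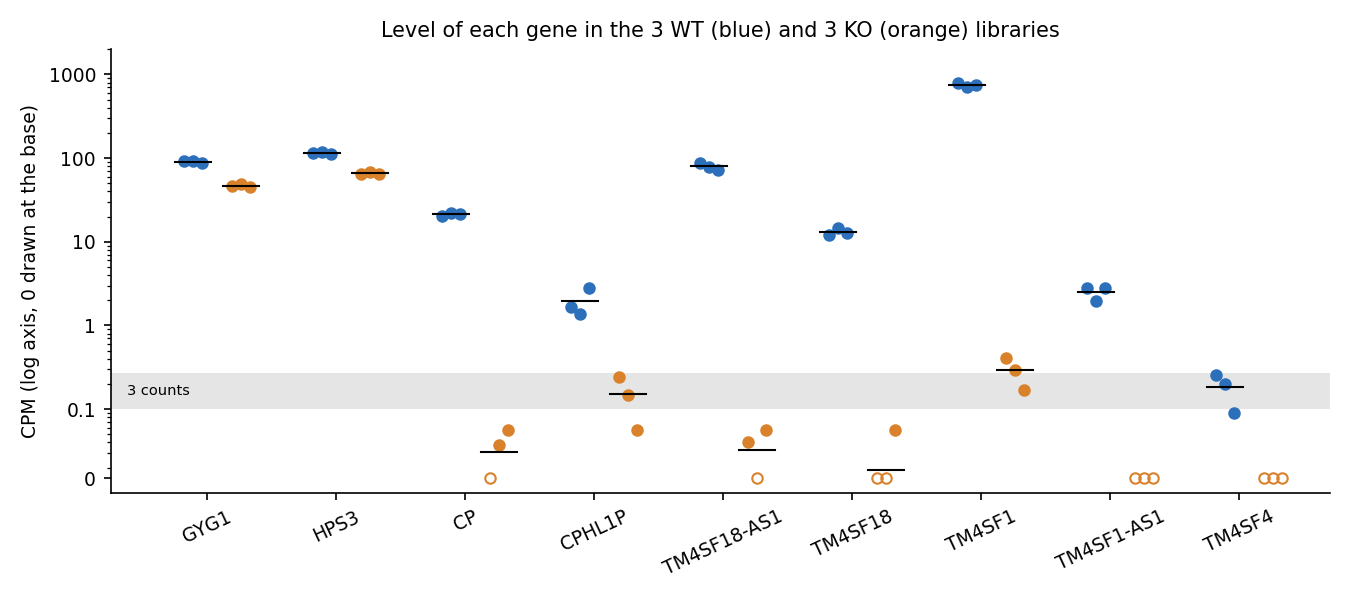
Level of each gene of the block in every library (y axis, CPM on a log axis, with 0 drawn at the bottom), WT points in blue, KO points in orange and a bar at each group mean; open circles are libraries with 0 counts, and the grey band spans 3 counts from the deepest to the shallowest library. TM4SF1 falls from 714 to 799 CPM in WT to 0.168 to 0.406 CPM in KO, while GYG1 and HPS3 stay between 45.5 and 68.0 CPM in KO.

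Of the 8 members tested, 6 were called lower in KO, meaning a log2 fold change under −1 with adjusted p below 0.05, against 7.73% of all 16198 genes tested, and 0 were called higher, against 8.30% of all genes. GYG1 and HPS3 missed the fold threshold, GYG1 narrowly at −0.95, and the member nearest to it on the other side was CPHL1P, well past it at −3.42. By adjusted p alone, 32.0% of all genes were lower. All KO libraries lay below all WT libraries for all 9 members, and for 33.5% of the genes tested. The median log2 fold change was −9.04 over the 8 members and 0.000443 over all genes. Because the contrast was known when the genes were picked, nothing is read from these counts. In bulk RNA, fewer cells that express a gene and less RNA per cell cannot be told apart.

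Along the chromosome, CP, CPHL1P, TM4SF18-AS1, TM4SF18, TM4SF1 and TM4SF1-AS1 were consecutive among tested genes, and all 6 were called lower. Over the genome there were 2 runs of at least 6 consecutive tested genes called lower and 11 runs of at least 5, with 3 and 7 runs called higher. The run of the block is itself among those of at least 6 called lower. Its genes were chosen with the contrast known, so nothing is read from its length. Several transcripts of the block overlap each other. The span of TM4SF18-AS1 covers 15156 bases of TM4SF18, though exons coincide over only 124 bases, 22.5% of the TM4SF18-AS1 exons and 2.85% of those of TM4SF18. CP and HPS3 converge and share 1420 exon bases, 20.1% of CP and 22.9% of HPS3. GYG1 shares 1649 exon bases with HLTF, 21.8% of its own exons. TM4SF1-AS1 shares 825 exon bases, 35.4% of its exons, with the unnamed gene ENSG00000243885. Library preparation kept the strand, but whether the counting used it was not given in the sources used here. How reads from these shared stretches were assigned is therefore not known. Over the KO libraries CP had 2 counts beside 4568 of HPS3, so HPS3 reads were hardly counted as CP there. ENSG00000243885 had no counts in any library.

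**Figure D2:**
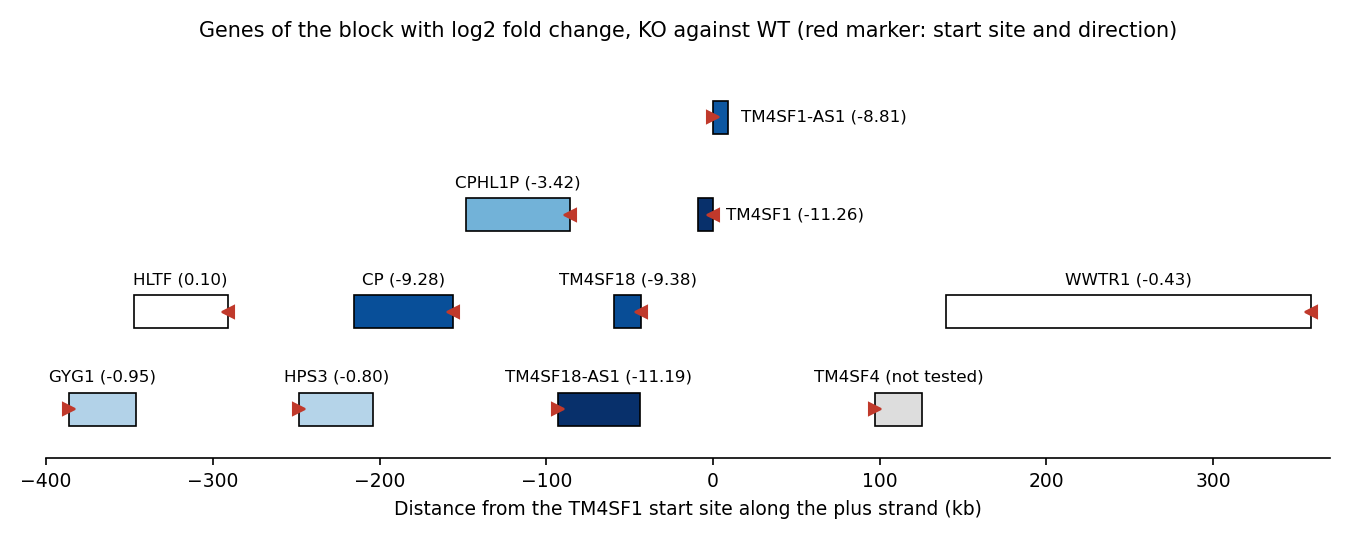
Position of the 9 genes and of HLTF and WWTR1 relative to the TM4SF1 start (x axis, kb), each box a gene with its log2 fold change in KO against WT beside it and a red marker at its start that points along transcription. The darkest boxes, from CP at −9.28 to TM4SF1 at −11.26, lie between HPS3 at −0.80 and WWTR1 at −0.43. TM4SF4 is drawn in grey, since it was not tested.

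Levels of different genes were compared per kilobase of annotated exon (RPKM). In WT the order was TM4SF1 at 216 ± 12.2 RPKM, TM4SF18-AS1 at 144 ± 14.1, HPS3 at 18.4 ± 0.433, GYG1 at 12.0 ± 0.231, TM4SF18 at 3.02 ± 0.332, CP at 3.01 ± 0.145, TM4SF1-AS1 at 1.08 ± 0.201, CPHL1P at 0.494 ± 0.190 and TM4SF4 at 0.119 ± 0.0550 RPKM (SD, n = 3). TM4SF18 and CP overlapped, and every other pair of neighbours in this order was separate in all WT libraries. In KO the order was different, since HPS3 at 10.6 RPKM and GYG1 at 6.19 RPKM came first and TM4SF1 followed at 0.0831 RPKM. TM4SF1 overlapped TM4SF18-AS1 in KO, TM4SF18-AS1 overlapped CPHL1P, and CP, TM4SF18, TM4SF1-AS1 and TM4SF4 could not be ranked at this depth. With the longest transcript in place of all exons, CP rose to 4.78 RPKM and TM4SF18 to 3.53 RPKM in WT.

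Genes around the block were taken by position and were tested. Since the members were chosen with the contrast known, which neighbours count as non-members may depend on their values. Of 10 further genes listed inside the block, 5 had no counts in any library and HLTF, a helicase-like chromatin remodeller that overlaps the end of GYG1, was the only one tested. HLTF had 5919, 6450 and 2468 counts in WT and 6000, 5756 and 4277 in KO. Mean levels were 218 ± 3.82 CPM for WT and 233 ± 16.5 CPM for KO (SD, n = 3), and the groups overlapped. The log2 fold change was 0.10 (SE 0.0505), which did not pass the test (edgeR, adjusted p = 0.0969), although it did without KO replicate 2 (edgeR, adjusted p = 0.00587), with upper quartile normalization (edgeR, adjusted p = 0.0303) and under a filter of 10 counts in each library (edgeR, adjusted p = 0.0393). EEF1A1P45, a pseudogene inside TM4SF4, had 8 counts over WT and 1 over KO.

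On the far side of TM4SF4, WWTR1, which encodes the transcriptional coactivator TAZ, lay 13.8 kb away. It fell from 82.1 ± 1.70 to 60.8 ± 1.83 CPM (SD, n = 3), a log2 fold change of −0.43 (SE 0.0517, edgeR, adjusted p = 1.01e-08). COMMD2, a COMM domain gene, fell from 46.5 to 33.4 CPM (−0.49, SE 0.0604, edgeR, adjusted p = 1.82e-08). RNF13, a ubiquitin ligase gene, did not pass the test (−0.06, edgeR, adjusted p = 0.401), nor did WWTR1-AS1 (0.29, edgeR, adjusted p = 0.481). The pseudogene NPM1P29 passed it at a log2 fold change of 0.79 (edgeR, adjusted p = 0.00985), but not without KO replicate 2 (edgeR, adjusted p = 0.0885) or with DESeq2 (adjusted p = 0.0704). On the near side, the pseudogene UBQLN4P1 lay 3.74 kb before GYG1 and did not pass (0.44, edgeR, adjusted p = 0.246). None of these neighbours reached the fold threshold that CP, CPHL1P, TM4SF18, TM4SF18-AS1, TM4SF1 and TM4SF1-AS1 passed. The choice of members may have fixed part of this contrast, so nothing is read from it.

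Within 2 Mb of the block, 19 non-member genes were tested, of which 1 was called higher and 2 were called lower. The lower pair, ZIC1 and ZIC4, neighbouring zinc finger genes of neural development, lay farthest away on the near side. ZIC1, 1481 kb before the block, fell from 14.98 ± 0.544 to 0.255 ± 0.0374 CPM (SD, n = 3; log2 fold change −5.82, SE 0.180, edgeR, adjusted p = 8.84e-24). ZIC4 fell from 2.61 to 0.385 CPM (−2.70, SE 0.251, edgeR, adjusted p = 4.03e-11). ERICH6 rose from 0.374 to 1.23 CPM (1.68, SE 0.316, edgeR, adjusted p = 2.6e-05). For the 19 genes the log2 fold change had a median of 0.13. Over the 876 tested genes of chromosome 3 the median was 0.25, with 105 called higher and 55 called lower, or 6.28%, against 7.73% of all genes. The study reported a higher DNA content and chromosome number in KO cells than in WT. Their composite karyotype lists a gain of chromosome 3. The part of copy number in these levels was not tested.

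**Figure D3:**
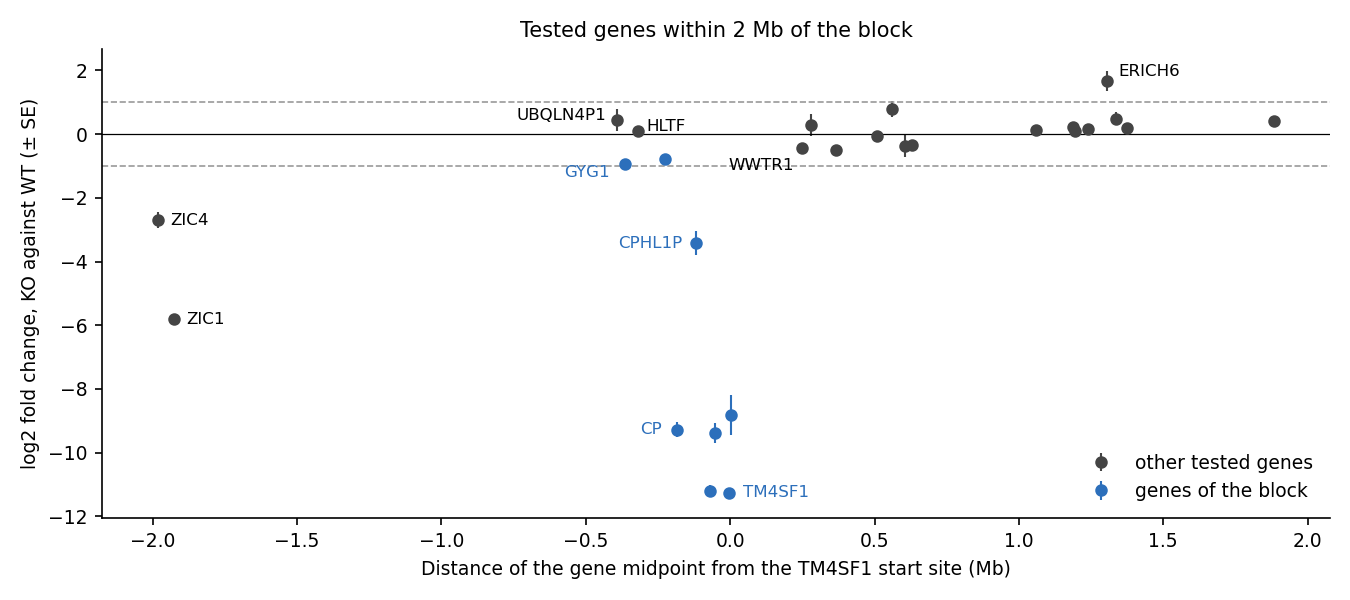
Log2 fold change in KO against WT (y axis, points with SE) of the 8 tested genes of the block in blue and the 19 other tested genes within 2 Mb in grey, by distance of the gene midpoint from the TM4SF1 start (x axis, Mb). Dashed lines mark the fold threshold; blue points from CPHL1P at −3.42 to TM4SF1 at −11.26 lie below it, HLTF and WWTR1 lie near 0, and ZIC1 at −5.82 is the lowest of the other genes.

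A few genes elsewhere had levels most like those of TM4SF1 or CP over the 6 libraries, measured as the root mean square difference of log2 CPM. For TM4SF1 the nearest was F2RL2, a thrombin receptor gene, at a difference of 0.76, with 426 ± 17.1 CPM against 0.361 ± 0.152 CPM in WT and KO (SD, n = 3). SPRY1, PEG10, MEST and LMO4 followed at 0.87, 1.00, 1.09 and 1.51. For CP the nearest was TGFB2, a TGF-beta ligand, at 0.07, with 20.2 CPM in WT and 0.0311 CPM in KO. ZNF215, ANXA1, SUCNR1 and SLC8A1 followed at 0.20, 0.28, 0.37 and 0.38. SUCNR1, the succinate receptor, is the one on chromosome 3 and lies 2.37 Mb after the block, with 20.9 CPM in WT and 0.0694 CPM in KO. Such likeness covers both the level in WT and the drop. KO levels were 1.43 CPM for LMO4 and at most 0.361 CPM for the others.

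CP acts with other genes of iron and copper handling, of which 31 of 40 could be tested. In that list 2 were called higher and 2 lower, against 8.30% and 7.73% of all genes, with a median of −0.02, close to that of all genes. SLC40A1, the iron exporter ferroportin that ceruloplasmin serves, fell from 9.61 to 3.51 CPM (−1.46, SE 0.116, edgeR, adjusted p = 1.08e-12). CYBRD1, a ferric reductase gene, fell from 86.4 to 20.6 CPM (−2.08, edgeR, adjusted p = 2.02e-24). SLC39A8, an importer of zinc and iron, rose from 10.4 to 38.5 CPM (1.86, edgeR, adjusted p = 4.69e-20), and TF, encoding transferrin, rose from 0.415 to 1.19 CPM (1.41, edgeR, adjusted p = 9.24e-05). Ferritin heavy chain FTH1 rose by less than the fold threshold (0.85, edgeR, adjusted p = 3.91e-17), and light chain FTL (−0.05, edgeR, adjusted p = 0.324) and transferrin receptor TFRC (0.01, edgeR, adjusted p = 0.873) did not pass. HEPH, the membrane-bound ferroxidase most like ceruloplasmin, had 10 counts over WT and 8 over KO and was not tested.

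Tetraspanins, which L6 proteins resemble, were called in both directions. Of 36 L6 and tetraspanin genes outside the block, 24 were tested, and all of these were tetraspanins. Among them 9 were called lower and 3 higher, against 7.73% and 8.30% of all genes, and the median was −0.36. TSPAN18 fell from 9.89 to 0.194 CPM (−5.69, edgeR, adjusted p = 1.80e-20), and TSPAN12, TSPAN31 and TSPAN15 also fell (log2 fold changes −5.88, −5.00 and −3.47, edgeR, adjusted p = 2.61e-10, 1.03e-20 and 2.37e-06). TSPAN1 rose from 0.179 to 38.4 CPM (7.73, edgeR, adjusted p = 1.94e-28), TSPAN32 rose from 2 counts over WT (8.58, edgeR, adjusted p = 1.88e-22), and CD82 rose by 1.01 (edgeR, adjusted p = 3.29e-09), which dropped under the fold threshold without WT replicate 1 (0.91), KO replicate 2 (0.94) or KO replicate 3 (0.998). CD9, a broadly expressed tetraspanin, fell by 1.03 on the log2 scale (edgeR, adjusted p = 2.01e-11), and by less than the threshold without WT replicate 1 (−0.992) or KO replicate 3 (−0.987), while CD151 rose by 0.50 (edgeR, adjusted p = 3.85e-10). The remaining L6 genes TM4SF5, TM4SF19 and TM4SF20 had no counts in any library, so TM4SF1, TM4SF18 and the trace of TM4SF4 were the L6 transcripts counted in these cells.

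For the partners of GYG1, 25 of 30 glycogen metabolism genes were tested. In that list 2 were called lower and 0 higher, against 7.73% and 8.30% of all genes, with a median of −0.12. GYG2, the second glycogenin gene, fell from 75.1 to 39.6 CPM (−0.92, edgeR, adjusted p = 4.29e-16), short of the fold threshold like GYG1 itself. The called genes were PGM2L1, a sugar bisphosphate synthase gene (−2.38, edgeR, adjusted p = 9.52e-20), and PPP1R3B, a glycogen-targeting subunit of protein phosphatase (−1.21, edgeR, adjusted p = 2.49e-16). GYS1, the glycogen synthase that extends the glycogenin primer, did not pass (−0.08, edgeR, adjusted p = 0.191). For the partners of HPS3, 25 of 26 genes of Hermansky-Pudlak syndrome and lysosome-related organelles were tested. Here 1 was called lower and 0 higher, against the same shares of all genes, with a median of −0.06. That gene, RAB32, fell from 68.3 to 31.2 CPM (−1.13, edgeR, adjusted p = 2.17e-17). HPS5 (−0.06, edgeR, adjusted p = 0.404) and HPS6 (−0.15, edgeR, adjusted p = 0.104), which form BLOC-2 with HPS3, did not pass, although HPS6 did without WT replicate 1 (edgeR, adjusted p = 0.0485) and without KO replicate 2 (edgeR, adjusted p = 0.0154).

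**Figure D4:**
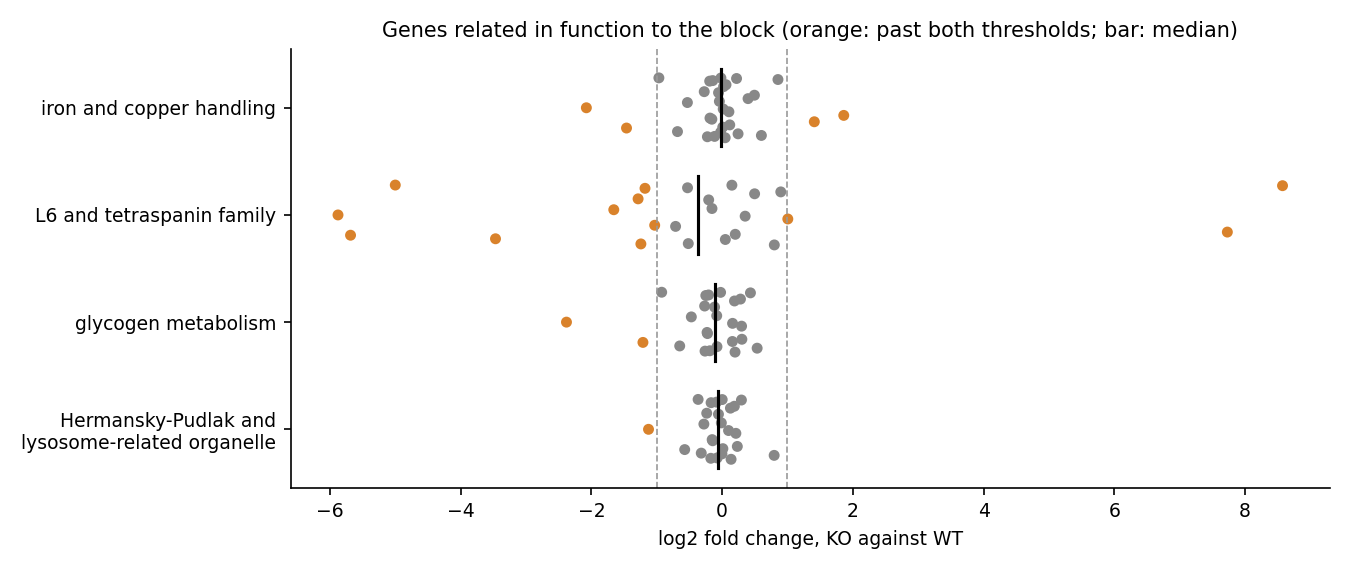
Log2 fold change in KO against WT (x axis) of every tested gene of the 4 lists around CP, TM4SF1, GYG1 and HPS3 (rows), each point a gene, orange where called, with a bar at the list median and dashed lines at the fold threshold. Medians run from −0.36 for the L6 and tetraspanin list, in which only tetraspanins were tested, to −0.02 for iron and copper handling, against 0.000443 over all genes tested.

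TM4SF1 and CP are also markers of other cells, endothelium and hepatocytes, so those cells' genes were summed. Of 10 endothelial markers 5 were tested. The summed level of the 10 was 22.1 to 25.7 CPM in WT and 17.7 to 21.1 CPM in KO. EGFL7 made up most of that sum (17.3 CPM in WT, 14.2 in KO), followed by ERG (4.69 and 3.83 CPM), and neither was called. PECAM1 had 1 count over each group and CDH5 had 1 and 4 counts. VWF was called higher (12 counts over WT, 50 over KO) and CLDN5 lower (38 and 0 counts). Of 10 hepatocyte markers 6 had no count in any library, and the sum was 0.700 to 0.984 CPM in WT and 1.68 to 2.19 CPM in KO. Leukocyte markers summed to 2.79 to 4.52 CPM in WT and 0.854 to 1.26 CPM in KO, with PTPRC at 3 and 2 counts. CD74 made up most of the WT sum and fell from 2.91 to 0.147 CPM, whereas CD14 was called higher (24 counts over WT, 50 over KO). Fibroblast markers were high in both groups, at 11252 to 11626 CPM in WT and 8668 to 8945 CPM in KO, and 6 of the 9 tested were called lower, against 7.73% of all genes. Among these, COL1A1 fell from 629 to 122 CPM, PDGFRA from 90.6 to 14.7 CPM and POSTN from 38.7 to 0.0124 CPM, and DCN and LUM had 0 counts in KO, whereas COL3A1, the most abundant, averaged 6000 ± 148 CPM for WT and 5953 ± 106 CPM for KO (SD, n = 3). By adjusted p alone, 7 fibroblast markers were lower and 1 was higher, THY1, which rose from 113 to 136 CPM. The part of these cell types in the levels of the block was not tested.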

How the data were processed

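RNA from 3 WT and 3 CDK12 KO A2780 libraries was measured by sequencing, with group labels taken from the genotype of each sample. The authors deposited raw read counts per gene. FastQC, STAR, HTSeq and GRCh38 are named in the submitters' processing notes, and their versions, the gene annotation and the strand setting of the counting are not given in the sources used here. Positions, exon lengths and symbols came from GENCODE 44 (56321 of 60483 IDs matched, 15989 of the 16198 tested).

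Genes were filtered with filterByExpr (minimum count 10, minimum total 15), scaled by TMM and compared, KO against WT, with edgeR 4.0.16 in R 4.3.3 (quasi-likelihood test with Benjamini-Hochberg adjustment over all 16198 genes tested, biological coefficient of variation 4.35%). The study's own methods used voom with limma, which was run as an alternative (limma 3.58.1), as was DESeq2 1.42.0. A call needed an adjusted p under 0.05 and an absolute log2 fold change over 1. SE is the absolute log2 fold change divided by the square root of the F statistic. It can be too small where a group is near 0 counts. KO as a percent of WT used counts summed over each group and scaled by summed library sizes, so it can differ from the ratio of group means. Its intervals are exact (95%, binomial conditional on the summed counts) and cover counting error only, since reads carried no molecular identifiers. A group at 0 was set to a floor of 3 counts. Scripts were tested on simulated data.

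The block's members and the gene lists were chosen with earlier results of these data known. Genes named besides members were those inside the block, the 5 nearest tested genes on each side within 2 Mb and any called there, up to 4 called genes in each direction per list, fixed partners of CP, GYG1, HPS3 and TM4SF1 (such as HEPH, TFRC, GYG2, HPS5 and CD9), and the 5 genes nearest in level to TM4SF1 and to CP. Marker genes and EEF1A1P45 were named after their values were seen where they fell outside this rule.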

Additional observations from a re-analysis of the deposited data

How the results depend on the processing

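No paired analysis was possible because the labels number the libraries 1 to 6 across both groups and pair none. None of the 8 tested members changed direction under any alternative. Log2 fold changes ran from −11.55 to −11.05 for TM4SF1, −11.67 to −10.57 for TM4SF18-AS1, −11.31 to −8.71 for TM4SF18, −9.75 to −8.73 for CP, −8.91 to −6.78 for TM4SF1-AS1, −3.91 to −3.14 for CPHL1P, −0.98 to −0.92 for GYG1 and −0.82 to −0.77 for HPS3. The −11.31 of TM4SF18 came without KO replicate 3, which held its 1 KO count, the −10.57 of TM4SF18-AS1 without KO replicate 2, and the −6.78 of TM4SF1-AS1 from voom with limma. Requiring at least 10 counts in every library left HPS3 and GYG1 alone among the members, 1252 genes called in place of 2597, 0 in place of 3 within 2 Mb and 5 in place of 12 among L6 and tetraspanin genes. A test against the fold threshold itself called 1687 genes in all and 7 L6 and tetraspanin genes. By adjusted p alone the calls were 10353 in all, 12 within 2 Mb, 18 for iron and copper, 23 for L6 and tetraspanin, 18 for glycogen and 14 for Hermansky-Pudlak genes. Without the filter, 5 genes within 2 Mb and 2 Hermansky-Pudlak genes were called. Windows of 1 Mb and 5 Mb held 0 and 10 called genes. Leaving out each replicate in turn gave 2723 to 2809 genes called, 3 to 4 within 2 Mb, 4 to 5 for iron and copper, 10 to 12 for L6 and tetraspanin, 2 for glycogen, 1 for Hermansky-Pudlak and a chromosome 3 median of 0.24 to 0.26. The TM4SF1 level in WT was 242 RPKM by the longest transcript. Of the alternatives for the other named genes, 374 kept direction and side of the adjusted p threshold, 5 came to pass it (HLTF and HPS6), 2 no longer did (NPM1P29) and 2 changed sign, RNF13 (−0.11 to 0.0061 over left-out replicates, positive without KO replicate 2) and TFRC (−0.060 to 0.049, negative without WT replicate 1). CD9 and CD82, close to the fold threshold, were the named genes that crossed it. The causes were not tested. In KO, depth limits members with 0 to 3 counts to statements on the floor or the counting interval.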
